A study of Drosophila melanogaster with 4 samples.

Results

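The cytosolic ribosomal proteins are the protein subunits of the ribosome that translates nuclear-encoded messages. They were taken here as every gene of the deposited table whose symbol begins with RpL or RpS followed by a digit or P, which gave 92 of 13932 genes, 54 named for the large subunit and 38 for the small one. The RNA came from guts of females of the wild-type Drosophila melanogaster strain Oregon R-C and was compared between flies reared on a chemical diet without manganese and flies on that diet with 5 ppm manganese. The flies of both groups hatched from eggs laid on their own diet over 5 days by 10 females and 10 males, and newly eclosed females spent 5 more days on fresh food of that diet. Each diet has 2 libraries, whose column headers carry the letters B and C after the prefix Rep. Beyond that prefix, nothing in the labels says what the letters mark or whether libraries of the same letter form a pair. The labels also do not say how many guts a library pools or whether both libraries of a diet had cultures of their own. The p-values therefore measure only how far these libraries differ, and that spread may be technical.

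A ribosome holds each of its proteins in a fixed number, and in flies and other animals the genes for them are among the most active in growing and secreting cells. Their messages respond together to nutrition and growth signals through the TOR pathway, and flies that lose one copy of many of these genes develop slowly with thin bristles, the Minute phenotype. The gut epithelium renews itself and makes large amounts of digestive enzymes, so it holds many ribosomes.

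Levels are in RPKM, read counts divided by transcript length and by library depth. In genes with a single annotated transcript, 99.5% to 99.7% of values under 20 reads lay within 0.02 of a whole number of reads, which puts the library sizes behind the values at 26123002 and 26310730 reads for no manganese B and C and at 24400791 and 28010715 reads for 5 ppm B and C. Library no manganese C stands apart in RNA of the ovary: 16 eggshell markers summed to 0.602 and 536 RPKM in no manganese B and C, against 2.04 and 4.58 RPKM in 5 ppm B and C. Of the 16, 9 were highest in no manganese C, and 6 had a mean of at least 1 RPKM. Of 9 gut epithelium markers in the table, 8 had a mean of at least 1 RPKM, and pros, a marker of enteroendocrine cells, had 0.279 to 0.386 RPKM. Their sum was 5514 and 5820 RPKM in no manganese B and C, against 4207 and 3851 RPKM in 5 ppm B and C. Of the 8 tested, 4 were higher and 4 lower without manganese (median log2 difference -0.01). The protease gene Jon65Aiii, the most abundant of them, had 3511 and 3964 RPKM without manganese against 2209.8 and 2026 RPKM with it, with no overlap (log2 difference 0.82 ± 0.16 SE, limma, adjusted p = 0.776). Myo61F was lower without manganese with no overlap, at 461 and 454 RPKM against 475 and 509 RPKM (limma, adjusted p = 0.904). GATAe, a transcription factor of the midgut, had 30.4 and 34.1 RPKM without manganese against 36.5 and 28.1 RPKM at 5 ppm. The trypsin gene betaTry had 1303 and 1148 RPKM without manganese against 1277 and 1059.8 RPKM at 5 ppm.

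Most members were expressed at a high level. Of the 92, 37 averaged 1000 RPKM or more across the libraries, 42 had 100 to 1000 RPKM, 4 had 10 to 100 RPKM, 1 lay between 1 and 10 RPKM and 8 lay below 1 RPKM. The 79 members with a mean of at least 100 RPKM had a median of 984 RPKM, with quartiles at 747 and 1521 RPKM, and 69 of them were among the 200 genes of highest mean level in the table. The median was 1056 RPKM for the 47 large subunit members of that level and 983 RPKM for the 32 small subunit members. All genes with a mean of at least 1 RPKM had a median of 11.002 RPKM.

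RpL41, whose product is the smallest protein of the ribosome, led the list with 5208 and 5568 RPKM in no manganese B and C, against 4367 and 5986 RPKM in 5 ppm B and C. The 5 ppm libraries lay on either side of both no-manganese libraries, an order that most other members shared. RpL41 (FBgn0066084) lies on chromosome 2R from 24903416 to 24903935 on the minus strand of the dm6 assembly and has 320 exon bases, and RPKM of so short a message depends strongly on which length the authors divided by. RpS27A, whose product is made as a fusion with ubiquitin, had 2858 and 2916 RPKM without manganese against 2593 and 3145 RPKM with it. RpL39, a small protein of the exit tunnel, had 2687 and 2721 RPKM without manganese, against 2444 and 3119.6 RPKM with it. RpL23 and RpLP1, a protein of the acidic stalk that recruits elongation factors, completed the highest 5, with means of 2497 and 2086 RPKM over the 4 libraries. The other ubiquitin fusion, RpL40, averaged 1260.4 RPKM.

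**Figure D1:**
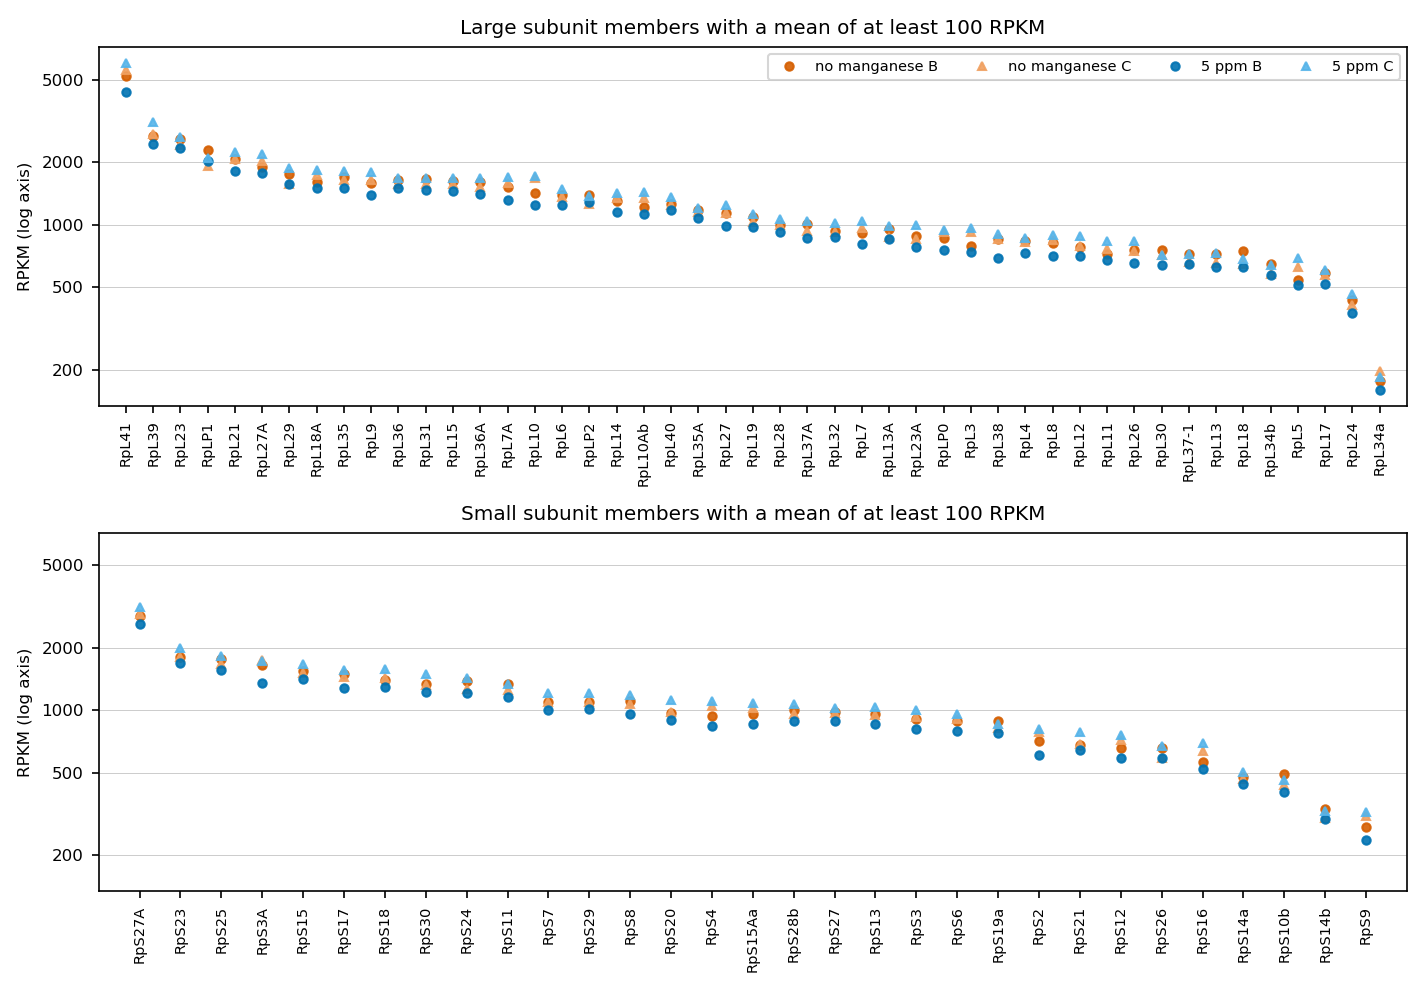
RPKM (log axis) of 78 of the 79 members with a mean of at least 100 RPKM, large subunit above and small subunit below, ordered by mean; each symbol is 1 library. The 4 libraries of a gene lie close together, from RpL41 with a mean of 5282 RPKM to RpL34a with 179.7 RPKM.

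The genes share features that the choice by name did not use. They are spread over the genome, with 14 members on X, 19 on 2L, 21 on 2R, 14 on 3L, 23 on 3R and 1, RpS3A, on chromosome 4. Their transcripts are short, with a median of 901 exon bases against 1736 for all protein-coding genes of the table. Introns of 27 of the 92 members (29.4%) hold at least 1 annotated snoRNA gene on the same strand, 67 snoRNA genes in all, while 0.57% of all protein-coding genes of the table do; snoRNAs guide the modification of ribosomal RNA. RpS7, a small subunit protein gene, held 7. Of the 92 genes, 12 share over 10% of their exon bases with other genes, 7 on the opposite strand and 5 on the same strand. RpS9 has the largest antisense share, 50.3% with asRNA:CR45874, and, with the use of strand not given in the sources used here, reads of such partners cannot be told apart.

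Between the diets the ribosomal protein genes did not differ beyond the spread between libraries. The 84 members with a mean of at least 1 RPKM were tested with limma on log2(RPKM + 1) among 7556 genes. None passed at an adjusted p under 0.05 (0 of 84; background 0.0% of genes tested), and 0 had an unadjusted p under 0.05, against 5.84% of all genes tested. The smallest adjusted p of a member was 0.863. The fitted difference, no manganese minus 5 ppm, was above 0 in 61 members (background 56.4%) and below 0 in 23 (background 43.6%), with a median of 0.02 on the log2 scale, the same as the 0.02 of all genes tested. The difference was between -0.12 and 0.12 in 81 of the 84. With trimmed mean scaling 39 members were above 0 and 45 below, so the direction of so small a median depends on the scaling. The diets did not overlap in 1 member, which was higher without manganese (background 21.7%), and in 0 that were lower (background 15.2%). That member was RpL30, a large subunit protein, with 753 and 717.1 RPKM without manganese and 642 and 716.9 RPKM at 5 ppm; its groups were thus separated by less than 1 RPKM (log2 difference 0.11 ± 0.13 SE, adjusted p = 0.907). CG31793 covers 25.1% of its exon bases on the opposite strand.

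Among the members with the largest positive fitted differences were RpS3A, RpL30, RpS15Ab and RpL38. RpS3A, a small subunit protein, had 1659 and 1742 RPKM without manganese against 1360.0 and 1729.6 RPKM with it (0.15 ± 0.18 SE, adjusted p = 0.915). Its no-manganese values and that of 5 ppm C lay together, and 5 ppm B was low. The largest negative differences were those of RpL24-like, RpS21, RpL29, RpS20 and RpL39, between -0.22 and -0.03. RpL24-like encodes a relative of RpL24 whose yeast counterpart acts in the assembly of the large subunit and leaves before it is mature. It had 78.6 and 82.5 RPKM without manganese against 79.5 and 110.3 RPKM with it (-0.22 ± 0.18 SE, adjusted p = 0.863), so that 3 libraries were alike and 5 ppm C was high. Without 5 ppm C its difference was 0.02. RpS6, the small subunit protein that S6 kinase phosphorylates, had 888 and 908 RPKM without manganese and 791 and 956 RPKM with it, a difference of 0.05 ± 0.15 SE (adjusted p = 0.981).

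The members differed more between the 5 ppm libraries than between the diets. Of the 84 tested, 78 were lowest in 5 ppm B (background 25.5%), 70 were highest in 5 ppm C (background 22.3%) and 68 had both ends in those libraries of the same diet (background 7.09%). The no-manganese libraries lay between: no manganese B held the lowest value in 2 members and the highest in 10, and no manganese C held the lowest in 4 and the highest in 4. Relative to each gene's mean over the 4 libraries on the log2 scale, the members' medians were 0.01 and 0.00 in no manganese B and C, against -0.15 and 0.13 in 5 ppm B and C. The same medians over all genes tested were -0.003 and 0.03 without manganese, against -0.007 and -0.02 with it. The shift between the 5 ppm libraries was shared by nearly all members, while the medians of all genes tested stayed near 0. In 83 of the 84 members 5 ppm C was above 5 ppm B (background 48.6%), with a median difference of 0.27, a 1.21-fold higher level in 5 ppm C. That difference, of 1 library against 1, exceeded the fitted diet difference in 83 members, and in 56.2% of all genes tested. For the 68 members with both ends in the 5 ppm libraries this follows from the order itself. Between the no-manganese libraries the median of C minus B was -0.01 and 37 members were higher in C (background 55.2%).

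**Figure D2:**
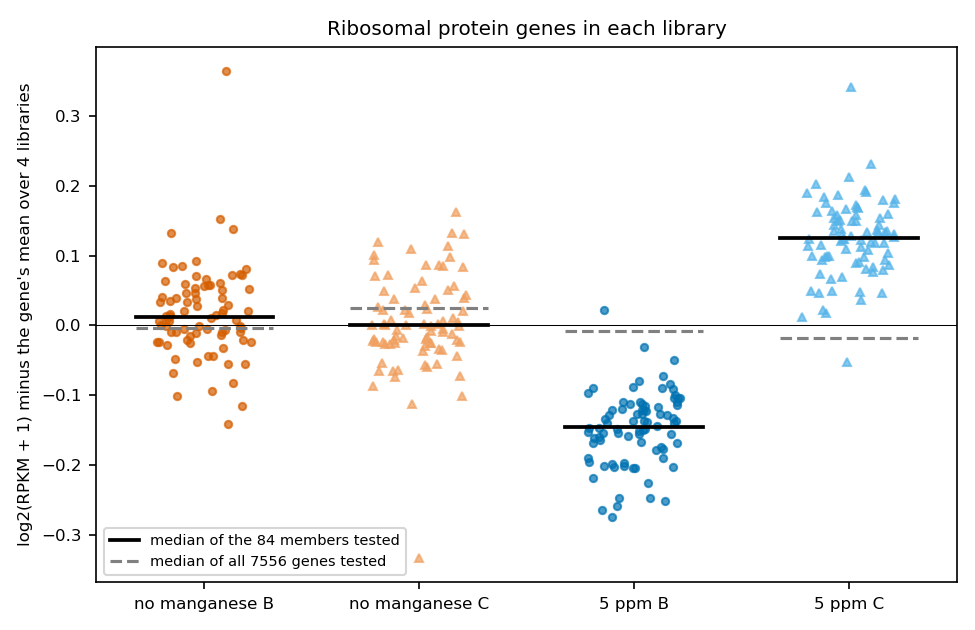
Each point is 1 tested ribosomal protein gene in 1 library, with 82 of the 84 drawn,, as log2(RPKM + 1) minus the gene's mean over the 4 libraries; bars are medians of the members (solid) and of all genes tested (dashed). The members sit near 0 in both no-manganese libraries, mostly below 0 in 5 ppm B and mostly above 0 in 5 ppm C.

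The direction of the diet difference therefore depended on which letter was compared. In the B libraries no manganese was above 5 ppm in 82 of 84 members (background 51.3%), with a median of 0.16, or 1.12-fold. In the C libraries no manganese was above 5 ppm in 5 of 84 (background 57.6%), with a median of -0.12, or 0.92-fold. The exceptions included RpL24-like among the B libraries and RpS3A, RpL30, RpL34a and RpS15Ab among the C libraries. Without 5 ppm B, 7 members were higher and 77 lower without manganese (median -0.11), and without 5 ppm C, 83 were higher and 1 lower (median 0.15), with 0 members past the adjusted test in either case. The large and small subunits behaved alike, with medians of 0.17 and 0.16 in the B libraries and of -0.12 and -0.11 in the C libraries.

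Summed over the 92 genes, the members took 15.7% and 16.5% of all RPKM in no manganese B and C, against 14.3% and 17.9% in 5 ppm B and C. The means were 16.1% ± 0.566 without manganese and 16.1% ± 2.53 with it (SD, n = 2 each; exact permutation test, 2-sided, p = 1, where 2 against 2 libraries cannot go below 0.33). The spread between the 5 ppm libraries was wider than that between the no-manganese libraries, and the diet means coincided. By letter the share was higher in C in both diets, 17.2% in C and 15.03% in B on average (exact permutation test, 2-sided, p = 0.33). Their summed RPKM was 94384.9 and 94059.6 in no manganese B and C, against 84127.1 and 102068 in 5 ppm B and C, so without manganese C exceeded B in share and not in summed RPKM. In bulk tissue of this kind, fewer cells of a type and less RNA per cell cannot be told apart.

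Grouped by letter, the members were mostly higher in C, though not in both diets. C was above B in 83 of 84 members at 5 ppm (median 0.27, background 48.6%). Without manganese C was above B in 37 of 84 (median -0.01, background 55.2%). The fitted difference, C minus B, was above 0 in 79 members (background 53.1%) and below 0 in 5 (background 46.9%), with a median of 0.13 against 0.01 for all genes tested. C lay above B without overlap in 37 members (background 23.5%) and below B in 1 (background 20.2%). None of the 84 passed the adjusted test (limma, background 0.0%; smallest adjusted p = 0.522), and 0 had an unadjusted p under 0.05 (background 9.7%). Without 5 ppm B the median was 0.06, and without 5 ppm C it was 0.06 as well, with 61 and 67 of 84 members higher in C. Without no manganese B and without no manganese C the median was 0.21 and 0.19. Each of these fits leaves 1 library in a letter, so genes past the test there are not read as a result about the members.

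Members differed in how far they followed the letter. Among the largest differences were those of RpL10, RpL5, RpS9 and RpS16, with log2 differences of 0.36, 0.32, 0.32 and 0.30. RpL10, a large subunit protein that joins late in assembly, had 1679 and 1715 RPKM in the C libraries without and with manganese, against 1416 and 1239.6 RPKM in the B libraries (0.36 ± 0.14 SE, adjusted p = 0.522). RpL5, which carries the 5S ribosomal RNA into the large subunit, had 626 and 692 RPKM in C against 544 and 511 RPKM in B (0.32 ± 0.13 SE, adjusted p = 0.525). Both genes were higher in C than in B in both diets. On the other side stood RpL22, RpLP1, RpL18, RpLP2 and RpS14b, with letter differences between -0.39 and -0.01. RpL22, a large subunit protein that binds RNA at the surface of the ribosome, had 63.1 and 76.9 RPKM in C, without and with manganese, against 103 and 81.0 RPKM in B (-0.39 ± 0.18 SE, adjusted p = 0.552). It was the 1 member lower in C without overlap, and most of its difference lay between the no-manganese libraries. RpL22 (FBgn0015288) lies on chromosome X from 762560 to 765130 on the minus strand, and lncRNA:CR42491 covers 34.3% of its exon bases on the same strand, so its value is uncertain.

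The stalk proteins are given together. RpLP1 and RpLP2 form dimers on the base protein RpLP0. RpLP1 had 1925 and 2098 RPKM in the C libraries without and with manganese against 2283 and 2037 RPKM in B, and RpLP2 had 1264 and 1375 RPKM in C against 1397 and 1283 RPKM in B. RpLP0 had 925 and 945 RPKM in C against 859 and 752 RPKM in B. The log2 differences, C minus B, were -0.10 ± 0.15 SE for RpLP1, -0.02 ± 0.14 SE for RpLP2 and 0.22 ± 0.14 SE for RpLP0, none past the test, with adjusted p = 0.839, 0.961 and 0.633, and the differences between these genes were not tested.

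Across the 84 members, the C minus B difference without manganese ran with that at 5 ppm (Spearman's rho 0.75, against 0.40 over all 7556 genes tested), and the diet difference in B ran less with that in C (0.19, against 0.29 over all genes tested). These are descriptions across genes, which share libraries and are not independent replicates. Exon length ran weakly with the members' letter difference (rho 0.17) and with their diet difference (0.20); over the 7506 tested genes with a gene model, these were 0.16 and -0.27.

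**Figure D3:**
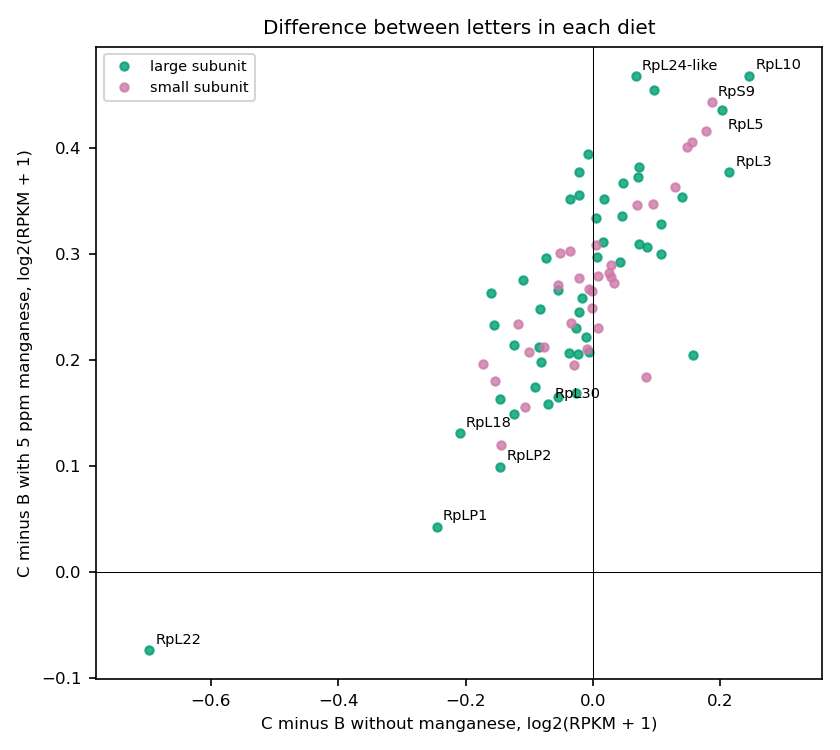
Each point is 1 tested ribosomal protein gene, 82 of the 84 being drawn, with C minus B on the scale of log2(RPKM + 1) without manganese (horizontal) and at 5 ppm (vertical). The cloud sits around -0.01 on the horizontal axis and around 0.27 on the vertical one and slopes upward, with RpL22 at the lower left and RpL10 at the upper right.

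Several ribosomal proteins are encoded by a pair of genes or more, and in most of these groups 1 copy carried the expression in the gut. RpL7, RpL10Ab, RpL22, RpL37-1, RpS10b, RpS19a and RpS28b each held over 99.9% of the RPKM of their group in every library. Their partners RpL10Aa, RpL22-like, RpS28a and RpS28-like had 0 reads in all libraries, where 3 reads would be 0.0869 to 0.404 RPKM depending on the gene and library. RpL7-like, RpL37-2, RpS10a and RpS19b had at most 2 reads in any library; RpS19b had the highest mean below the minimum of 1 RPKM, 0.0564 RPKM. RpL22-like is known from the male germline and RpS19b from the germline. RpL7-like shares 98.8% of its exon bases with CG34164, so its single read belongs to either. RpLP0-like, a relative of RpLP0 with a yeast counterpart in ribosome assembly, had 22.6 and 22.3 RPKM without manganese against 19.97 and 26.2 RPKM with it.

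In 3 groups both genes were well expressed. RpS14a and RpS14b lie next to each other on chromosome X, from 7933742 to 7934677 and from 7934898 to 7935792, and encode the same protein. RpS14a held 58.8% and 60.7% of their summed RPKM without manganese and 59.6% and 60.8% with it, but reads that match both copies leave that split uncertain. RpL34b held 78.5% and 74.7% of its pair without manganese, against 78.04% and 77.5% with it, the rest being RpL34a. RpL24 held 84.6% and 83.3% of its group without manganese, against 82.6% and 80.7% with it, the rest being RpL24-like. That relative has a yeast counterpart in large subunit assembly, so the share is not read as a split between copies. RpS15Aa had 963 and 1028 RPKM without manganese and 854 and 1087 RPKM with it. Its copy RpS15Ab had 17.2 and 18.3 RPKM without manganese and 15.3 and 17.5 RPKM with it. The share of RpS15Ab was 1.59% to 1.76% in the 4 libraries, and any reads that match both copies leave it uncertain too.

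Library no manganese C was also high in other markers of the ovary. The 10 female germline markers in the table summed to 3.59 and 43.0 RPKM in no manganese B and C, against 4.47 and 5.86 RPKM in 5 ppm B and C, and 9 of them were highest in no manganese C. The transcript osk, which sets the posterior of the egg, had 0.0801 and 18.1 RPKM without manganese and 0.114 and 0.622 RPKM with it. Of the 16 eggshell markers 9 were highest in no manganese C, and Vm26Aa, Vm32E and dec, at 143, 35.3 and 61.6 RPKM there, were at 0 in no manganese B. The 6 fat body and yolk markers followed the letters, with 330.3 and 833 RPKM without manganese and 209 and 479 RPKM with it. The part of these tissues in the members' values was not tested.

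Other genes of the translation machinery were counted for the same order of libraries, 5 ppm B lowest and 5 ppm C highest (background 7.09%), and 0 of them passed the test between diets (limma, adjusted p under 0.05). The small subunit protein sta and the scaffold Rack1, ribosome constituents that the name rule leaves out, and the associated factors Nacalpha, bic, Tctp and pAbp gave 4 of 6 genes with 5 ppm B lowest and 5 ppm C highest. Rack1 had 789 and 811 RPKM without manganese and 709 and 835 RPKM with it. Elongation and release factors gave 4 of 10, and 6 of the 11 in the table were highest in no manganese C. Of the 10 tested, 9 were higher and 1 lower without manganese (median 0.09, background 56.4% higher). In the B libraries 8 of the 10 were higher (median 0.14, background 51.3%) and in the C libraries 6 (median 0.02, background 57.6%). The elongation factor gene eEF1alpha1, which brings aminoacyl-tRNA to the ribosome, had 3986 and 4303 RPKM without manganese against 3609.99 and 4589 RPKM with it. Of this list eEF1delta, a subunit of the exchange factor, had the smallest unadjusted p (0.18 ± 0.15 SE, adjusted p = 0.849). Initiation factors gave 14 of 26, with 19 higher and 7 lower without manganese (median 0.03, background 56.4% higher). Of these 26, 20 were higher in the B libraries and 8 in the C libraries (medians 0.09 and -0.05). The factors eIF1 and eIF2beta, which act in start codon choice and in tRNA delivery, had differences of 0.18 ± 0.11 SE and 0.17 ± 0.14 SE.

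Most ribosome biogenesis genes were highest in 5 ppm C. Of 30 tested, 12 were higher and 18 lower without manganese (background 56.4% higher, median -0.02, 0 past the test). Of the 30, 26 were highest in 5 ppm C (background 22.3%) and 19 had 5 ppm B lowest as well (background 7.09%). Their medians relative to each gene's mean were -0.10 and 0.07 in no manganese B and C, against -0.21 and 0.23 in 5 ppm B and C. Without manganese 24 of the 30 were higher in C than in B, beside 37 of the 84 members (background 55.2%), and the difference between the lists was not tested. By letter 29 of 30 were higher in C (median 0.30, background 53.1% higher), 13 of them at an unadjusted p under 0.05 (background 9.7% in either direction) and 0 at an adjusted p under 0.05. Fib, the methyltransferase of the box C/D snoRNA particles, had 16.8 and 19.9 RPKM in C without and with manganese against 11.1 and 11.7 RPKM in B (0.64 ± 0.12 SE, adjusted p = 0.407). Surf6, a nucleolar protein, had the smallest unadjusted p between diets, with 8.59 and 8.92 RPKM without manganese and 5.84 and 7.51 RPKM with it (0.35 ± 0.14 SE, adjusted p = 0.802).

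Genes that control growth and ribosomal protein supply went both ways. Without manganese 6 of 16 were higher and 10 lower (background 56.4% higher, median -0.09, 0 past the test). Of the 16, 1 had 5 ppm B lowest and 5 ppm C highest (background 7.09%). Xrp1, the transcription factor that flies switch on when ribosomal proteins are unbalanced, had 295 and 343 RPKM without manganese, against 369.6 and 385 RPKM with it, so it did not overlap between diets (-0.24 ± 0.13 SE, adjusted p = 0.815). Of the 16, 6 were lower without manganese with no overlap between diets (background 15.2%) and 3, M1BP, Dref and Mnt, were higher with no overlap (background 21.7%). The TOR complex subunit raptor and the TOR inhibitor gig were among the 6, at -0.29 ± 0.16 SE and -0.18 ± 0.10 SE, and neither passed. Thor, the translation repressor 4E-BP that rises in starved flies, split by letter: it had 1531 and 1567 RPKM in C without and with manganese, against 779 and 946 RPKM in B (0.85 ± 0.16 SE, adjusted p = 0.407). Myc, which drives ribosome production, had 18.2 and 21.0 RPKM in C and 16.2 and 12.6 RPKM in B (0.43 ± 0.16 SE, adjusted p = 0.506).

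The mitochondrial ribosomal proteins, a separate set that builds the ribosome inside mitochondria, had their libraries in another order. Of the 71 tested, 56 were lowest in 5 ppm B (background 25.5%), but 1 was highest in 5 ppm C (background 22.3%). Without manganese 70 were higher (background 56.4%), 47 with no overlap (background 21.7%). The median was 0.22, with 0 past the adjusted test. Their medians relative to each gene's mean were 0.04 and 0.19 in no manganese B and C, against -0.17 and -0.05 in 5 ppm B and C. Of the 84 cytosolic members, the same counts were 78 lowest in 5 ppm B, 70 highest in 5 ppm C, 61 higher without manganese and 1 with no overlap. The difference between the sets was not tested.

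**Figure D4:**
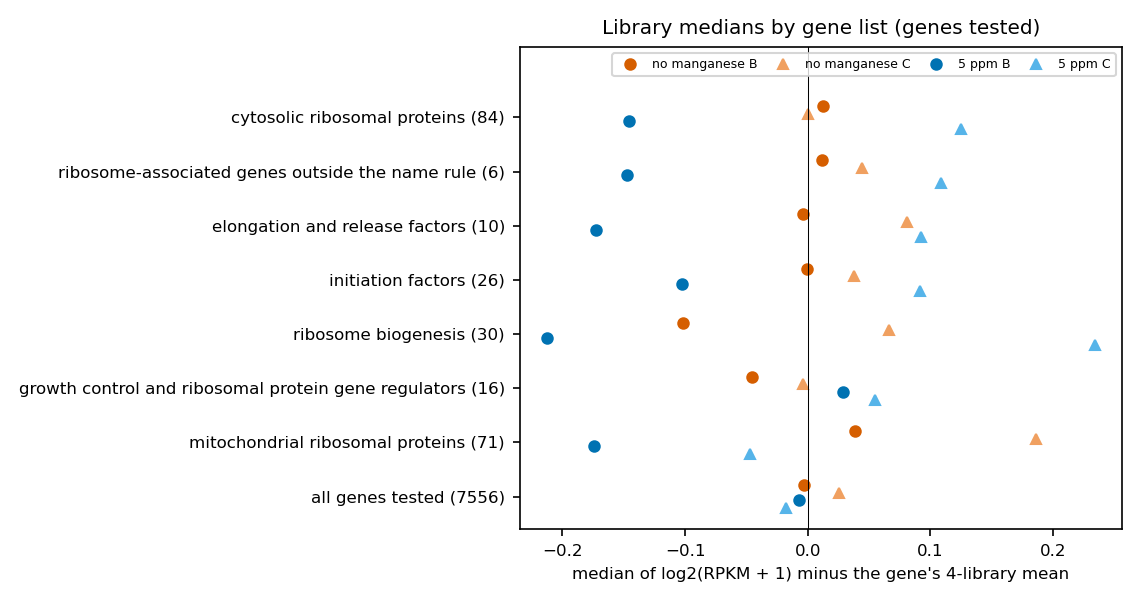
Median, over the tested genes of each list, of log2(RPKM + 1) minus the gene's mean over the 4 libraries, with 1 symbol per library and the number of genes in brackets. The cytosolic ribosomal proteins run from -0.15 in 5 ppm B to 0.13 in 5 ppm C and ribosome biogenesis genes from -0.21 to 0.23, while all genes tested stay within 0.03 of 0.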

How the data were processed

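The authors deposited RPKM values in a single table that has a column for each library. STAR 2.5.2b, DESeq2 and dm6 are listed, with no role, per the submitters' processing notes. The annotation, counting program, strand setting and handling of multiply mapped reads were not given in the sources used here. The columns name the diet and a letter, so a column was tied to a diet, never to one sample. Of the identifiers, 13852 had a symbol and 80 had none; gene positions and exon lengths were read from Ensembl 115 (BDGP6), which has dm6 coordinates. Tests ran in limma 3.58.1 (R 4.3.3). They used log2(RPKM + 1) over the 7556 genes with a mean of at least 1 RPKM, with a variance trend and Benjamini-Hochberg adjustment, 2-sided, threshold 0.05. They were tested on simulated data, whose reads were drawn independently for each gene, so shifts shared by many genes of a library were not covered. Fold changes on that scale understate those of low genes. Python 3.11.15, pandas 2.3.3 and SciPy 1.17.1 were used for the rest. Library sizes were recovered from the steps of low values; 3 reads in 1000 bases are worth 0.107 to 0.123 RPKM. Between libraries of a diet, 0 and 2 values of 7556 were identical, without and with manganese.

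The members and gene lists were chosen with earlier results of these data known. Genes named were the 5 members of highest and lowest level, the 5 with the largest difference in each direction by diet and by letter, all copies of paralog groups, RpLP0, RpLP1, RpLP2, RpL40, RpS27A and RpS6, and up to 4 genes per other list by unadjusted p between diets; 1 pair of members, counted in all totals, is not reported here. The snoRNA host RpS7, and eEF1alpha1, sta, Nacalpha, Fib, Thor, Myc, M1BP, Dref, Mnt, Vm26Aa, pros and GATAe were named after their values were seen. Of the lists written, the symbols eIF5A, Tor, nos, Dl and esg matched none in the table, so nothing was analysed under those symbols. Of the visceral muscle list, 2 of 6 tested genes were higher without manganese (median -0.04), and of the gut epithelium list 4 of 8 (median -0.01).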

Additional observations from a re-analysis of the deposited data

Results flagged for a closer look

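The diet difference of the ribosomal protein genes pointed one way in the B libraries and the other way in the C libraries. The median log2 difference, no manganese minus 5 ppm, was 0.16 in B, where 82 of 84 members were higher without manganese, and -0.12 in C, where 5 of 84 were. Each value compares 1 library with 1 library, and the difference between the letters was not tested.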

How the results depend on the processing

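The count of genes past the adjusted test was 0 for diet and for letter under every pseudocount, filter, scaling and variance setting tried; with 1 library left out it ran from 0 to 11 by diet (11 without no manganese B, 5 without no manganese C) and from 0 to 37 by letter (3 without 5 ppm B, 37 without 5 ppm C), under the assumption that the remaining single library varies as the other diet's or letter's do. Fitted with the replicate block, the letters for the diet comparison and the diet for the letter comparison, 0 genes passed in either, with 878 and 1090 genes at an unadjusted p under 0.05 against 441 and 733 without it. Deviations from the diet means correlated between the libraries of a letter (r = 0.34 over 7556 genes). With 2 letters and no label saying what they mark beyond the prefix Rep, they were taken as names only. The members' median ran from -0.11 to 0.15 by diet and from 0.06 to 0.21 by letter with 1 library left out. By diet it was -0.004 with trimmed mean scaling, 0.007 with median scaling and 0.02 with quantile normalization, with 39, 50 and 56 of 84 members higher; by letter these scalings gave 0.12, 0.11 and 0.16, with 75, 75 and 83 higher. The diet difference in the members' share of all RPKM, 0.0388 percentage points, was 0.0319 without the 5 highest members, 0.392 outside the mitochondrial genome, and from -1.75 to 1.83 with 1 library left out. Among 78 named genes tested, 0 to 24 changed sign by diet and 0 to 12 by letter under the 14 alternatives. The eggshell genes Vm26Ab, Vm32E, psd and dec passed by diet without no manganese B, and those 4, osk, yl and 1 ribosomal protein gene passed by letter without 5 ppm C. Depth does not limit the highly expressed members; the 8 members under 1 RPKM had 0 to 2 reads.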
